A study of Mus musculus with 2 samples.

Results

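The Fcnb class is a set of neutrophil-lineage progenitors that the authors' deposited cell annotation names after Fcnb, the gene of the secreted lectin ficolin B. Its members were all cells that the annotation places in that class, 498 of 14795 cells. They comprised 180 of 6906 cells from Control and 318 of 7889 cells from the library labelled Runx1 KO. The cells came from bone marrow of C57BL/6 mice, crushed out of the hind limbs and sorted as Lineage-, c-Kit+ and Sca1-. Control is a single library that pooled marrow of 1 Runx1f/f mouse and 1 Runx1f/- mouse, the latter with a germline Runx1 mutation on a single allele. The other library is labelled Runx1 KO, while the labels give neither its number of mice, nor the Cre driver, nor the deleted part of the gene. A description field of the same labels names embryos as the source, and the tissue and extraction fields were followed here. With 1 library per genotype there is no spread between animals, the library and the genotype cannot be told apart, and every interval below covers counting error only.

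Neutrophils are made in the marrow in steps that can be read from their granule genes. Promyelocytes load primary (azurophil) granules with myeloperoxidase (Mpo) and the serine proteases Elane, Prtn3 and Ctsg. Myelocytes switch, under the transcription factor C/EBP epsilon (Cebpe), to secondary granule proteins such as lactoferrin (Ltf), cathelicidin (Camp), neutrophilic granule protein (Ngp) and lipocalin 2 (Lcn2). The cytosolic calcium-binding pair S100a8 and S100a9 and the gelatinase granule genes follow. Runx1 encodes a DNA-binding transcription factor of blood progenitors, and the series title concerns its part in how neutrophils respond to Toll-like receptor signals.

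Expression is given as CPM: the unique molecular identifiers (UMIs) of a gene summed over the cells of a class in a library, per 1000000 UMIs of that sum. The class held 4543480 UMIs in Control and 7517512 in KO-labelled cells. Its median cell had 26072 and 23662 UMIs, and 4534 and 4297.5 detected genes. Cells with at least 10% mitochondrial UMIs numbered 4 and 10. Among all cells, 13 barcodes occurred in both libraries; no barcode was shared between the 2 sets of class cells, and 1 KO-labelled class cell had a barcode that was also present in Control. Of the 2 neighbouring neutrophil classes, Gstm1/CD63 had 621 and 657 cells at 28810 and 26825 median UMIs. The Ltf class had 50 and 221 cells at 11545 and 9352 median UMIs, so its values rest on less RNA.

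The class had higher levels of the 4 main primary granule genes than either neighbour in both libraries, while the late genes Ltf, Ly6g and Cd177 had few UMIs. Elane was 11455 CPM in Control and 11152 in KO-labelled cells. Prtn3 was 10211 and 11329 CPM, Mpo 7438 and 6772, and Ctsg 6322 and 7570, and every class cell had UMIs of all 4 genes. Lactoferrin, by contrast, had 7 UMIs in 3 of 180 Control cells and 18 UMIs in 13 of 318 KO-labelled cells. Ly6g, the surface antigen of maturing mouse neutrophils, had 2 and 0 UMIs, and Cd177, another late surface protein, had 8 and 0. A count of 0 allows up to 3 UMIs.

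Fcnb itself was sparse. The gene (ENSMUSG00000026835, GRCm38 chromosome 2, 28076378 to 28084885, a protein-coding gene on the minus strand) had 147 UMIs, 32.4 CPM, in Control and 93 UMIs, 12.4 CPM, in KO-labelled cells. Only 54 of 180 and 32 of 318 cells had a UMI of it, and 3 and 7 cells held 50% of its UMIs. Its level was 1.55 and 0.39 CPM in Gstm1/CD63 and 525 and 296 CPM in the Ltf class. The naming gene was thus higher than in the earlier neighbour and far lower than in the later one.

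Of the other 3 genes given as markers of the class, Wfdc21 and Anxa1 lay between the neighbours in both libraries. Only Wfdc21 was at least 1.5-fold from both neighbours in each library. Wfdc21, which encodes a small secreted WAP-domain protein, had 154 and 378 CPM, against 20.1 and 60.6 in Gstm1/CD63 and 4036 and 3615 in the Ltf class. Anxa1, the gene of the phospholipid-binding protein annexin A1, had 270 and 578 CPM, against 223 and 294 in Gstm1/CD63 and 2583 and 3300 in the Ltf class. In Control it differed from the earlier class by less than 1.5-fold. Cebpe had 330 and 302 CPM and did not separate the class from Gstm1/CD63, with 338 and 298 CPM. It was higher in the Ltf class, with 704 and 556 CPM, and in the small Prg2 class, with 1110 and 980 CPM. By these values the label of late progenitors holds only relative to Gstm1/CD63, and the cells are called the Fcnb class here.

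**Figure D1:**
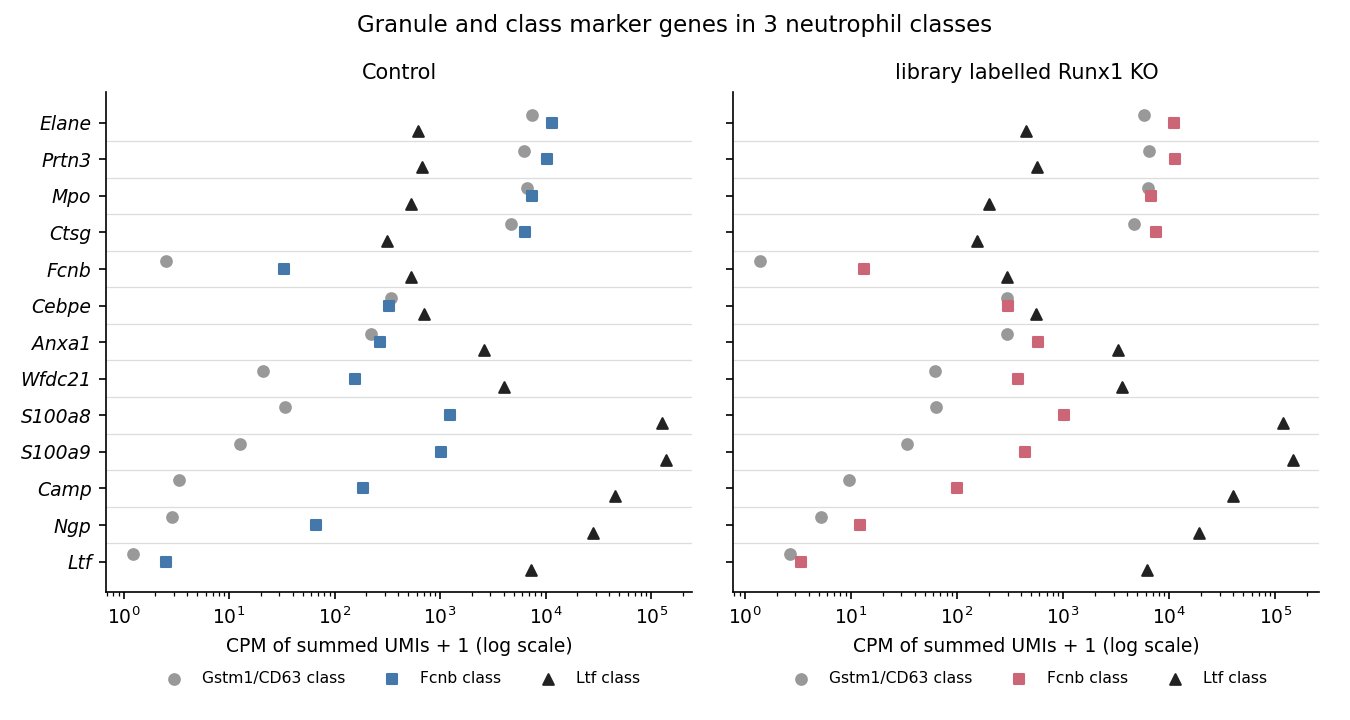
Levels of 13 granule and marker genes in the Gstm1/CD63, Fcnb and Ltf classes, as CPM of summed UMIs plus 1 on a log axis, with Control on the left and the library labelled Runx1 KO on the right. Elane, Prtn3, Mpo and Ctsg of the Fcnb class sit beside Gstm1/CD63, while Ltf, Ngp and Camp sit far below the Ltf class.

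Against all other cells of its library the class had higher levels of most primary granule genes, 11 of 15 measured ones being at least 2-fold higher in both libraries and 0 lower. Measured genes were those with at least 30 CPM in the higher of the compared groups and 50 UMIs over both, in each library. Of 4358 such genes, 99 were at least 2-fold higher in the class in both libraries (2.27%) and 134 at least 2-fold lower (3.07%). The classes were made from the same cells' genes, so these values are a description. The genes that led were Elane, at 7.36 and 10.0 times its level in the other cells, Prss57, another neutrophil serine protease, at 7.39 and 13.4 times, and Ms4a3, a membrane protein of granulocyte-monocyte progenitors, at 7.25 and 7.52 times. Gstm1, a glutathione transferase, stood at 6.05 and 7.64 times, and Rgcc, a cell cycle regulator, at 7.58 and 9.31 times. The lectin receptor Clec4a2 stood at 22.2 and 8.41 times. B4galt6, Prtn3, Trem3 and Clec12a completed the 10 highest.

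The class differed little from Gstm1/CD63. Of 3918 measured genes, 8 were at least 2-fold higher in the Fcnb class in both libraries (0.204%) and 7 at least 2-fold lower (0.179%), and the median absolute log2 difference was 0.12 in Control and 0.14 in KO-labelled cells. The 8 higher genes were S100a8, S100a9, Camp, Wfdc21, Clec4a2, Vcam1, G0s2 and Mgl2. Camp and S100a9 no longer passed without 11 cells described below that are rich in S100a8 and S100a9, where Camp had 2.05 and 7.85 CPM against 2.33 and 8.52 in Gstm1/CD63. Clec4a2 had 116 and 97.9 CPM against 23.2 and 21.9. Vcam1, an adhesion molecule, had 37.9 and 53.1 against 7.87 and 12.4. G0s2, an inhibitor of fat breakdown, had 55.5 and 49.8 against 14.5 and 12.9. Mgl2, a C-type lectin, had 42.3 and 71.4 against 15.3 and 23.5.

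Genes of earlier or other progenitors were among those lower than in Gstm1/CD63. Cpa3, a mast cell and basophil carboxypeptidase also present in early progenitors, had 18.3 and 21.2 CPM against 135 and 172. Ikzf2, the zinc finger factor Helios, had 8.80 and 12.1 against 42.2 and 49.9. Cd34, the stem and progenitor sialomucin, had 53.7 and 52.3 against 143 and 156. Ifitm1, Tespa1, Fabp5 and Pou2f2 were the other 4. Primary granule genes were somewhat higher than in Gstm1/CD63. On that list 0 of 15 measured genes passed 2-fold in either direction, and the median log2 difference was 0.43 in Control and 0.56 in KO-labelled cells, beside -0.06 and -0.08 over all measured genes. Elane was 1.55 and 1.92 times its Gstm1/CD63 level and Prtn3 1.65 and 1.76 times. With TMM (trimmed mean) or median-of-ratios scaling the median over all genes was at most 0.07 and each gave 11 genes higher and 6 lower.

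The step to the Ltf class was far larger. Of 4029 measured genes, 908 were at least 2-fold higher in the Fcnb class in both libraries (22.5%) and 363 at least 2-fold lower (9.01%). S100a8 and S100a9 alone made up 126628 and 137546 CPM of the Ltf class in Control, and the split depended on the scaling. With TMM scaling it was 480 higher and 538 lower, and with median-of-ratios scaling 452 and 551. The median over all measured genes was 0.51 and 0.60 on the log2 scale, and the other scalings lowered the differences by 0.30 to 0.47.

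Primary granule genes were higher in the Fcnb class than in the Ltf class. The list's median log2 difference was 3.15 and 3.89, with 10 of 14 measured genes at least 2-fold higher and 1, the lysozyme gene Lyz2, lower. Over all measured genes 22.5% were higher and 9.01% lower. Ctsg was 20.3 and 49.8 times higher, Elane 18.5 and 24.8 times and Mpo 14.1 and 34.2 times. All 32 cytosolic ribosomal protein genes passed 2-fold upward (list median 1.67 and 1.80), as did 16 of 18 ribosome biogenesis genes and 17 of 21 endoplasmic reticulum folding genes. With median-of-ratios scaling these counts were 30, 9 and 14, while those of the granule and NADPH oxidase lists were unchanged. In the other direction, 17 of 19 secondary granule genes (median -4.44 and -4.20), all 12 tertiary granule genes (-3.63 and -3.97) and 6 of 7 NADPH oxidase genes were lower in the Fcnb class. Camp was 183 and 99.5 CPM against 45787 and 40220, and Lcn2, the iron-siderophore binder, 47.1 and 48.2 CPM against 11786 and 14514.

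The cells of the class were not alike in their late genes, and a handful carried most UMIs of several of them. In 5 of 180 Control cells and 6 of 318 KO-labelled cells, S100a8 and S100a9 made up at least 1% of all UMIs, a limit set after the values were seen. Those cells held 85.9% and 57.6% of the class's UMIs of that pair. They also held 98.9% and 92.2% of its Camp UMIs and 97.6% and 69.4% of its Ngp UMIs. A single cell gave 648 of 832 Camp UMIs in Control and another 641 of 748 in KO-labelled cells, and a single Control cell gave 155 of 157 UMIs of Retnlg, a resistin-like gene of mature neutrophils. In the KO-labelled library the 23 Retnlg UMIs lay in 22 cells, none of them rich cells. The rich cells held 68.2% of Lcn2 UMIs in Control but 8.56% in the KO-labelled library.

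These 11 cells kept the primary granule proteases, with a median of 3.27% and 4.58% of UMIs from Mpo, Elane, Prtn3 and Ctsg, against 3.66% and 3.72% in the rest of the class. Their totals lay between 16890 and 39779 UMIs in Control and between 17212 and 32669 in KO-labelled cells, within the range of the class. No cell of the class had over 2 times the class's median UMIs. The median Ltf cell had only 11545 and 9352 UMIs, so a droplet with a cell of each class could stay under that limit. No doublets were called, and whether the 11 are single cells was not tested. In the other cells S100a8 was 299 and 556 CPM, S100a9 31.4 and 71.0, and Camp 2.05 and 7.85.

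The spread of the marker genes was different. Wfdc21 was seen in 129 of 180 and 284 of 318 cells, with a median of 85.6 and 293 CPM per cell. Anxa1 was seen in 161 and 305 cells, with a median of 183 and 413 CPM. S100a8 was seen in 144 and 270 cells, with a median of 142 and 167 CPM and a highest cell of 69923 and 91274 CPM. Thus a low level of S100a8, of Wfdc21 and of Anxa1 was present in most cells, although the rich cells held 76.7% and 46.2% of S100a8 UMIs. Most UMIs of S100a9, Camp and Ngp, and of Retnlg in Control, came from a few cells.

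**Figure D2:**
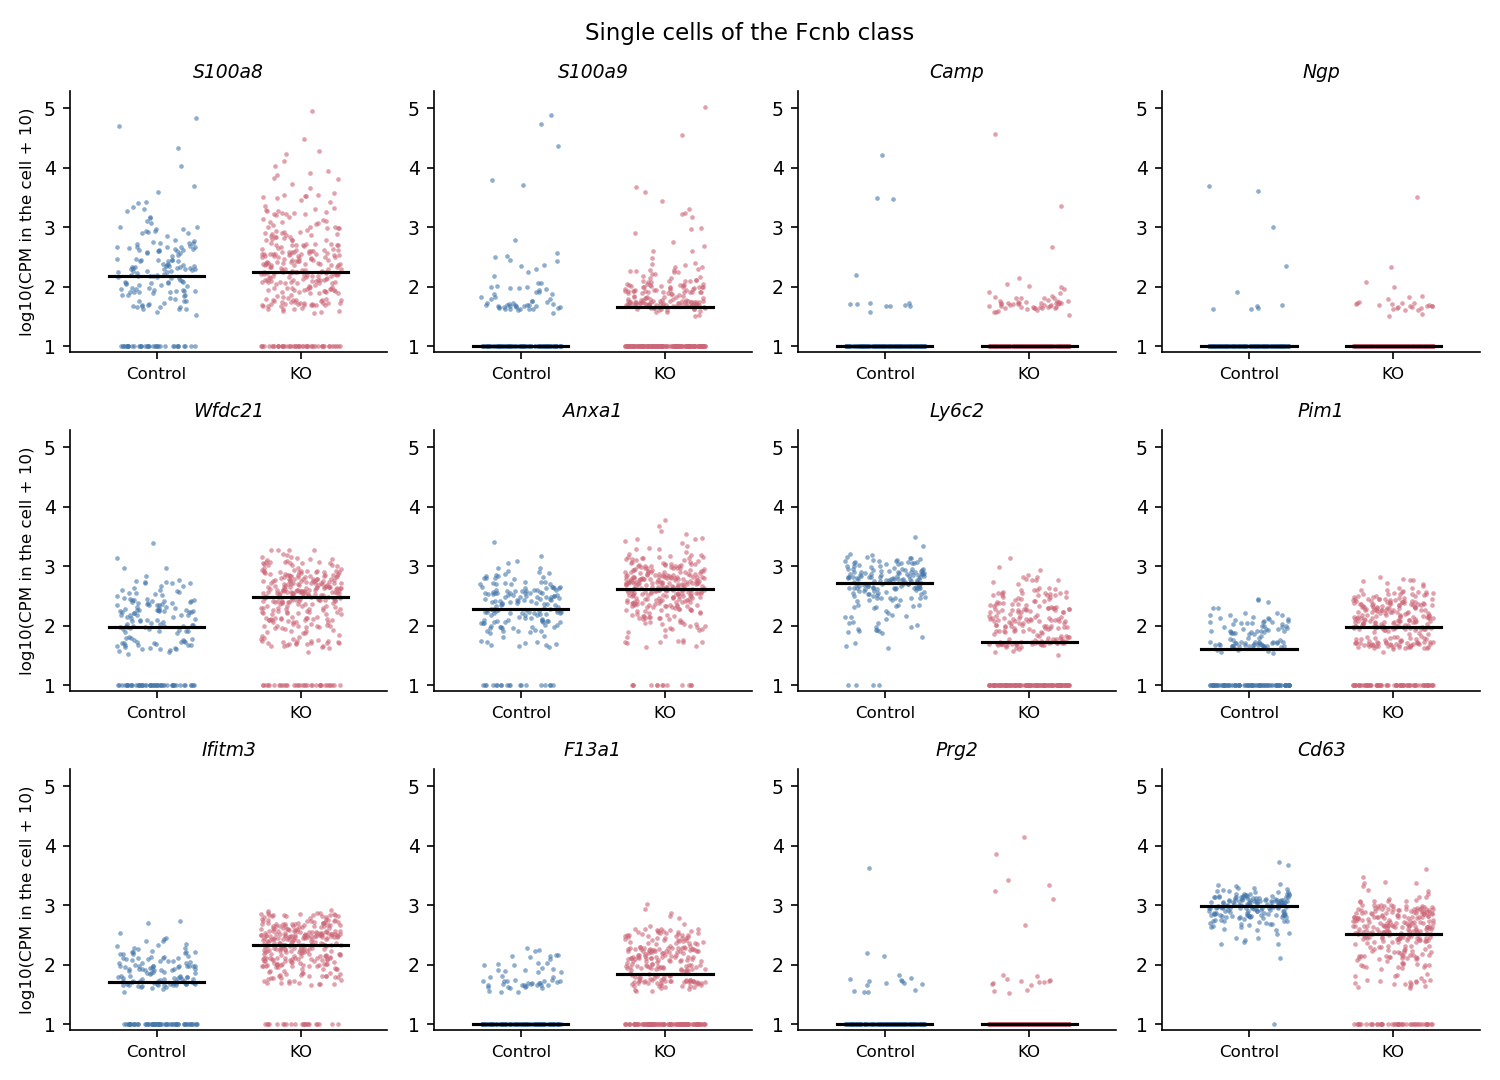
Each point is a cell of the Fcnb class (180 Control, 318 KO-labelled), with log10 of its CPM plus 10 on the vertical axis and the median as a bar; points at 1 had no UMI of the gene. Camp, Ngp and Prg2 come from a few high cells, while Wfdc21, Anxa1, Ly6c2, Pim1, Ifitm3, F13a1 and Cd63 differ across the body of the cells.

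Free RNA from other droplets sets a floor under such shares. With every cell thinned to 8000 UMIs (171 and 303 class cells, 9 and 15 left out), Camp was detected in 4.09% and 6.60% of class cells and in 2.51% and 8.35% of cells of the erythroid Car1 class, which should lack it. Their median depth before thinning was 15394 and 14621 UMIs. S100a9 was detected in 19.3% and 29.4% against 10.2% and 29.9%, so that in the KO-labelled library neither gene exceeded that floor. S100a8 (63.7% and 70.0% against 8.25% and 23.1%) and Wfdc21 (50.9% and 82.8% against 0.603% and 1.37%) did. Unthinned, Wfdc21 was detected in 71.7% and 89.3% of class cells.

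A stage index was taken per cell as the UMIs of 15 secondary granule genes over those plus the UMIs of Mpo, Elane, Prtn3 and Ctsg. Its median was 0.947% in Control, with quartiles of 0.712% and 1.25%, and 1.21% in the KO-labelled library, with quartiles of 0.837% and 1.58%. The highest tercile over both libraries held 37 of 180 Control cells (20.6%) and 129 of 318 KO-labelled cells (40.6%). The 15 genes include Lbp, which was itself higher in the KO-labelled library, and Lcn2, at 15.5 and 44.8 CPM outside the rich cells. Ltf, Camp, Ngp and Chil3 had at most 7.85 CPM there in either library. The part of each gene in the shift was not tested, so a higher index need not mean a later stage. Both medians stayed near 1%, so the bulk of the class in either library carried few transcripts of these 15 genes beside those of Mpo, Elane, Prtn3 and Ctsg.

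In the median cell, S phase UMIs of the class lay below those of Gstm1/CD63, and G2/M UMIs were equal. By summed UMIs, the median log2 difference from Gstm1/CD63 over the S phase list was -0.18 in Control and -0.16 in KO-labelled cells. Over the G2/M list it was 0.01 and -0.35, beside -0.06 and -0.08 over all measured genes. By that measure G2/M genes were also lower in the KO-labelled library. At 8000 UMIs per cell the median cell had 20 UMIs of the S phase list in Control and 19 in KO-labelled cells, against 25 and 22 in Gstm1/CD63 and 8 and 4 in the Ltf class. The G2/M list gave 18 and 18 UMIs, as in Gstm1/CD63 (18 and 18), and 54 and 34 in the Ltf class. Cells with at least 3 UMIs of the S phase list made up 100% and 99.7% of the class, so that limit did not divide the cells. At 30 UMIs, a limit set after the values were seen, 25.1% (95% interval 18.8 to 32.3) and 20.8% (16.4 to 25.8) passed for S phase and 21.6% (15.7 to 28.6) and 22.8% (18.2 to 27.9) for G2/M. In Gstm1/CD63 the shares were 35.5% (31.7 to 39.6) and 29.8% (26.3 to 33.5) for S phase and 23.8% (20.4 to 27.5) and 28.3% (24.8 to 31.9) for G2/M.

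The class made up a larger share of the KO-labelled library. It held 4.03% (exact 95% interval 3.61 to 4.49) of the cells there and 2.61% (2.24 to 3.01) of the cells in Control, 1.55 times the share (1.28 to 1.87). Among the 4 classes counted as neutrophil (Gstm1/CD63, Gstm1/Ly86, Fcnb and Ltf) it held 23.9% (21.6 to 26.2) of 1333 cells and 15.6% (13.5 to 17.8) of 1157 cells. Gstm1/Ly86 held 10.3% of those cells in the KO-labelled library and 26.4% in Control. The Fcnb share among them therefore depends on counting Gstm1/Ly86. The class named after Pf4, a platelet chemokine gene, held 22.6% of the KO-labelled library and 3.21% of Control, and without it the ratio was 1.93. Shares of a sorted sample add to 100%, so a larger share need not mean more cells.

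Within the class, few genes differed between the libraries. Log2 ratios below are those of the KO-labelled CPM over the Control CPM after adding 10 to each, which draws low genes toward 0. Of 3914 measured genes, 42 were at least 1.5-fold higher in the KO-labelled library (1.07%) and 36 at least 1.5-fold lower (0.92%). The median log2 ratio over all measured genes was 0.00. The 4 class markers included 2 higher genes (Wfdc21 and Anxa1) and 1 lower gene (Fcnb).

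**Figure D3:**
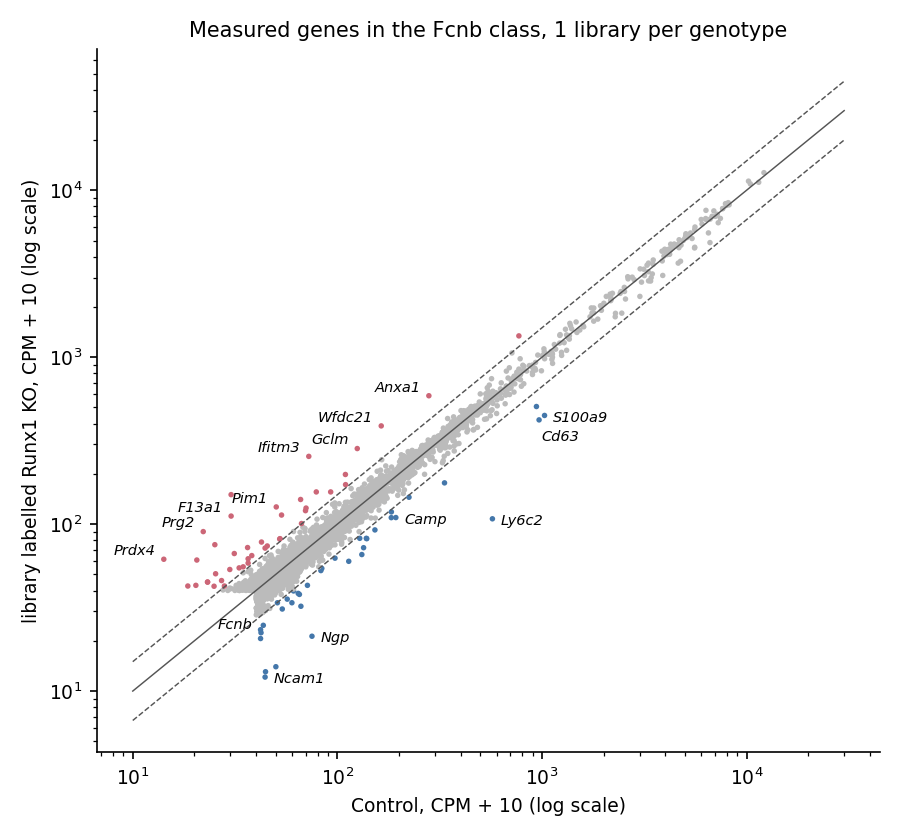
Each point is 1 of 3914 measured genes in the Fcnb class, with CPM plus 10 in Control on the horizontal and in the library labelled Runx1 KO on the vertical axis, both log scaled. Solid and dashed lines mark equal levels and 1.5-fold differences, and 42 genes lie above and 36 below the dashed lines.

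The targeted gene checks the labels only in part. Runx1 had 255 UMIs, 56.1 CPM, in Control and 981 UMIs, 130.5 CPM, in the library labelled Runx1 KO, a ratio of 2.33 (2.02 to 2.68). It was detected in 120 of 180 and 284 of 318 cells. Transcripts counted near the 3′ end do not check a deletion that lies elsewhere in the gene, so the direction is reported as measured and the library is named by its label.

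A pair of the class markers were higher in most KO-labelled cells. Wfdc21 (ENSMUSG00000051748, GRCm38 chromosome 11, 83746940 to 83752642, plus strand) had 154 CPM in Control and 378 CPM in KO-labelled cells, at a ratio of 2.45 (2.26 to 2.67). Anxa1 (ENSMUSG00000024659, chromosome 19, 20373428 to 20390944, minus strand) had 270 and 578 CPM, a ratio of 2.14 (2.01 to 2.28). Without the 11 cells rich in S100a8 and S100a9 their log2 ratios were 1.49 and 1.04. Lrg1, a leucine-rich glycoprotein of neutrophil granules, had 8.58 and 32.6 CPM, a ratio of 3.80 (2.70 to 5.47). For Wfdc21 the ratio lay past 1.5-fold within each tercile of the stage index. That of Anxa1 was 0.58 on the log2 scale in the lowest tercile, just under 1.5-fold, and 1.49 in the highest.

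Among the genes with the 12 highest log2 ratios were several of other functions. Prdx4 (ENSMUSG00000025289, chromosome X, 155323918 to 155340754, minus strand), a peroxiredoxin of the endoplasmic reticulum, had 19 UMIs, 4.18 CPM, in Control and 388 UMIs, 51.6 CPM, in KO-labelled cells. That is a ratio of 12.3 (7.80 to 20.7), with UMIs in 14 of 180 and 189 of 318 cells. F13a1, the A subunit of coagulation factor XIII, had 20.2 and 102 CPM (ratio 5.03, 4.04 to 6.31). Gclm, the modifier subunit of the enzyme that starts glutathione synthesis, had 115 and 274 CPM (2.38, 2.16 to 2.62). Spns1, a lysosomal lipid transporter, had 15.2 and 65.3 CPM (4.30, 3.34 to 5.62).

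Of 10 measured cytokine receptor and signalling genes, 2 were higher (Pim1 and Csf2rb) and 0 lower, beside 1.07% higher and 0.92% lower over all measured genes. Pim1, a kinase induced by cytokine signals through STAT factors, had 40.3 and 117 CPM (ratio 2.90, 2.47 to 3.42), and Csf2rb, the common beta chain of the receptors for IL-3, IL-5 and GM-CSF, 21.3 and 56.7 CPM (2.65, 2.12 to 3.34). Ifitm3, an interferon-inducible membrane protein that blocks viral entry, had 62.5 and 245 CPM (3.91, 3.45 to 4.45), with UMIs in 116 of 180 and 295 of 318 cells. Serpina3g, a protease inhibitor with near-identical family members among which reads could be split, had 10.6 and 50.9 CPM (4.82, 3.57 to 6.65).

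Prg2, the eosinophil major basic protein gene, had the second highest log2 ratio but came from a few cells. It had 55 UMIs in Control and 603 in KO-labelled cells, of which 3 cells held 41 and 460. Its relative Prg3 had 60 and 263 UMIs, with 3 cells holding 33 and 121. The summed level of the 10 eosinophil markers was 47.8 CPM in Control and 138 CPM in KO-labelled cells, while Ear1 and Alox15 were at 0 in both, Il5ra and Ear6 at 0 in Control, and Ear2 and Ccr3 at 0 in KO-labelled cells. Within the lowest and the middle tercile of the stage index the log2 ratio of Prg2 was -0.36 and -1.55, against 2.03 in all cells.

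The lowest log2 ratio was that of Ly6c2 (ENSMUSG00000022584, chromosome 15, 75108158 to 75111970, minus strand), a GPI-linked surface antigen of myeloid progenitors. Ly6c2 had 2556 UMIs, 563 CPM, in Control and 734 UMIs, 97.6 CPM, in KO-labelled cells, 5.76-fold lower, at a ratio of 0.174 (0.160 to 0.188). It was detected in 176 of 180 Control cells, with a median of 523 CPM per cell, and in 191 of 318 KO-labelled cells, with a median of 42.7 CPM. Its near-identical neighbour Ly6c1 had 2 and 3 UMIs, so the counts hold little of that copy, and reads shared by the copies could be split between them.

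Among other genes lower in the KO-labelled library, Cd63, a tetraspanin of azurophil granule membranes, had 958 and 411 CPM (ratio 0.429, 0.410 to 0.450) and median cells of 944 and 324 CPM. Ncam1, the neural cell adhesion molecule, had 156 UMIs in 88 cells and 16 UMIs in 16 cells, a ratio of 0.0620 (0.0346 to 0.104). Serpine2, a serine protease inhibitor, had 56.3 and 22.2 CPM, Nt5dc2 122 and 55.7, Selenom, a selenoprotein of the endoplasmic reticulum, 104 and 49.9, and Chdh, a choline dehydrogenase of mitochondria, 32.1 and 10.6. For each of these 6 genes the 3 highest cells held under 20% of UMIs in either library. Car1, the erythroid carbonic anhydrase, had 182 and 30 UMIs, of which a single Control cell held 98; without the highest cell of each library its log2 ratio was -1.11 in place of -1.84.

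Late granule genes went with the rich cells. S100a9 had 1019.5 CPM in Control and 438 CPM in KO-labelled cells, Ngp 65.1 and 11.3 CPM, Retnlg 34.6 and 3.06 CPM, and Camp 183 and 99.5 CPM, all at least 1.5-fold lower. Without the 11 rich cells all 4 changed direction, to log2 ratios of 0.97, 0.22, 0.33 and 0.57. Those remaining levels are near the background, which was itself higher in the KO-labelled library: in the Car1 class the log2 ratios of S100a9, Ngp, Retnlg and Camp were 1.65, 0.44, 1.10 and 0.72. S100a8, at 1238 and 1015 CPM, had a log2 ratio of -0.28 with and 0.87 without them. Fcnb kept its direction, at -0.92 with and -0.61 without them. At a pseudocount of 30 CPM it no longer passed 1.5-fold. Without the rich cells, which held 51.7% and 43.0% of its UMIs, Fcnb had 16.2 and 7.17 CPM, under the minimum of 30 CPM. Lcn2 had 47.1 and 48.2 CPM with them and was higher in the KO-labelled library without them, at a log2 ratio of 1.10.

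**Figure D4:**
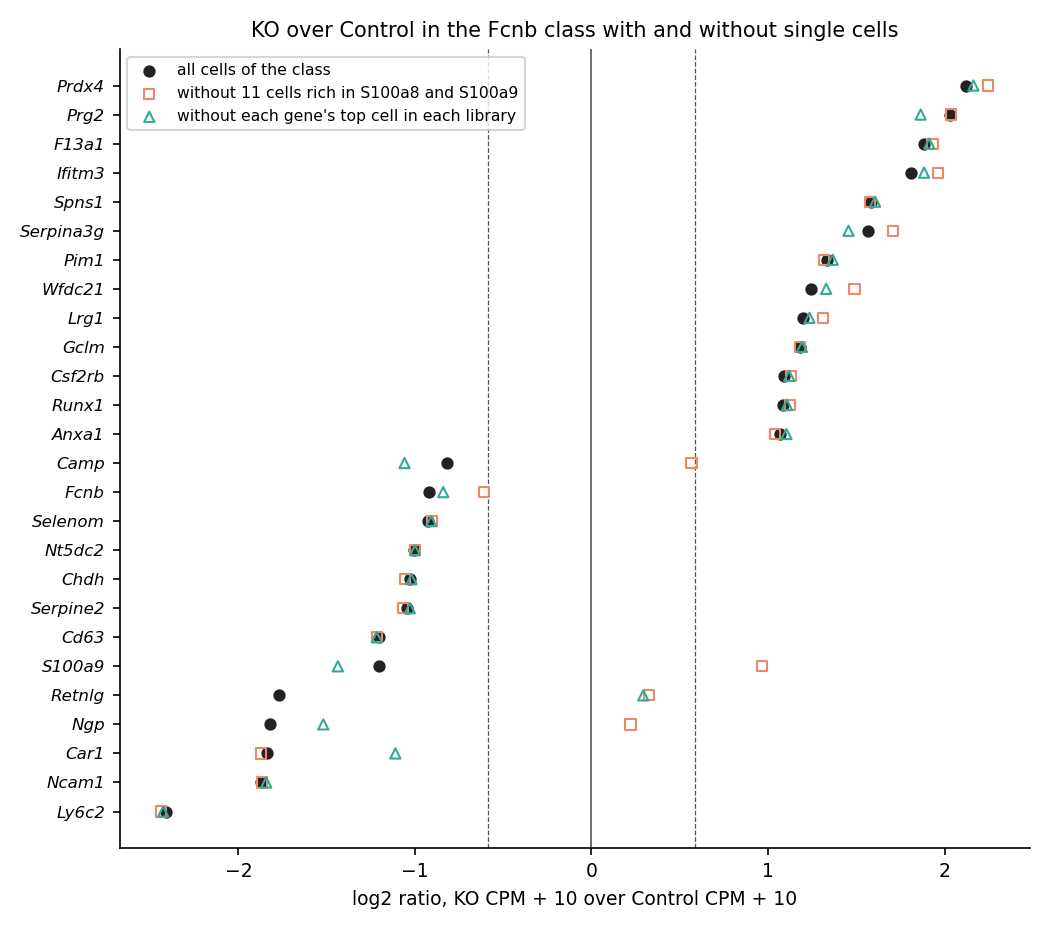
Log2 ratios of the KO-labelled library over Control in the Fcnb class for the 24 genes with the highest and lowest ratios, Anxa1 and Camp, in all cells (filled), without the 11 cells rich in S100a8 and S100a9 (squares) and without each gene's highest cell per library (triangles). Dashed lines mark 1.5-fold. S100a9, Ngp, Retnlg and Camp cross 0, and the other genes keep their side.

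By gene list, the 2 stages of granule genes differed in how many members passed 1.5-fold between the libraries. Of 14 measured primary granule genes 0 passed 1.5-fold in either direction, with a median log2 ratio of -0.04. Elane, Prtn3, Mpo and Ctsg had ratios of 0.974, 1.11, 0.910 and 1.20. Of 11 measured secondary granule genes 4 were higher (Anxa1, Wfdc21, Cybb and Lbp) and 3 lower (Camp, Ngp and Fcnb), with a median of 0.03. Cybb, Lbp and Fcnb no longer passed at a pseudocount of 30 CPM. Of 9 measured late neutrophil markers, a list that overlaps the secondary granule list, 2 were higher and 4 lower. Over all measured genes 1.07% were higher and 0.92% lower. The 4 lower ones were S100a9, Ngp, Retnlg and Camp, which changed direction without the 11 rich cells. Camp and Ngp are also among the lower secondary granule genes, so these lower counts rest on few cells. The lists of S phase (27 measured), G2/M (19), ribosome biogenesis (20), cytosolic ribosomal proteins (32) and nuclear oxidative phosphorylation (20) had 0 genes past 1.5-fold, and medians between -0.09 and 0.07.

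Of 22 measured transcription factors of the lineage, 2 were higher and 0 lower. Over all measured genes 1.07% were higher and 0.92% lower, the background for each list in this paragraph. The 2 were Runx1, the targeted gene, and Id1, an inhibitor of basic helix-loop-helix factors, at 13.2 and 35.0 CPM. Cebpe had a log2 ratio of -0.12, and Cebpa, Gfi1 and Spi1 had -0.31, -0.04 and 0.11. Of 5 measured interferon-stimulated genes 3 were higher, Ifitm3, Ifitm1 and Ifi27, with a list median of 0.75. Ifitm1 and Ifitm3 belong to a family of similar genes. Of 7 measured NADPH oxidase genes, Cybb, the catalytic subunit, was higher at 17.2 and 35.9 CPM and Ncf1, a cytosolic subunit, lower at 119 and 72.2 CPM. Neither passed 1.5-fold at a pseudocount of 30 CPM.

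Of 34 genes of the Toll-like receptor pathway 5 were measured, of which 1 was higher and 0 lower. Over all measured genes 1.07% were higher and 0.92% lower. The higher gene was Lbp, the lipopolysaccharide-binding protein, at 99.7 and 162 CPM (ratio 1.63, 1.46 to 1.82). At a pseudocount of 30 CPM Lbp no longer passed 1.5-fold. The list's median was 0.15. The lipopolysaccharide receptor Tlr4 had 21 and 61 UMIs and its co-receptor Cd14 21 and 86 UMIs, both under the minimum. Among cytokines, Il1b and Il6 had 0 UMIs in both libraries, which allows 3 UMIs in each class sum, and Tnf had 9 and 3 UMIs. Of 28 cytokine and chemokine genes 3 were measured and 0 passed 1.5-fold.

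The same genes in the neighbouring classes had mostly the same direction. All comparisons use the same 2 libraries, so they are not independent, and the differences between classes were not tested. Prdx4 had log2 ratios of 2.12 in the Fcnb class, 2.06 in Gstm1/CD63 and 1.66 in the Ltf class. Ly6c2 had -2.41, -2.61 and -0.94, and Gclm 1.18, 1.19 and 1.56. Wfdc21 had 1.24 and 1.23 in the Fcnb and Gstm1/CD63 classes and -0.16 in the Ltf class, where it was abundant in both libraries. Anxa1 had 1.07 in the Fcnb class and 0.39 and 0.35 in the other 2, and F13a1 had 1.89, 1.53 and 0.98.

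**Figure D5:**
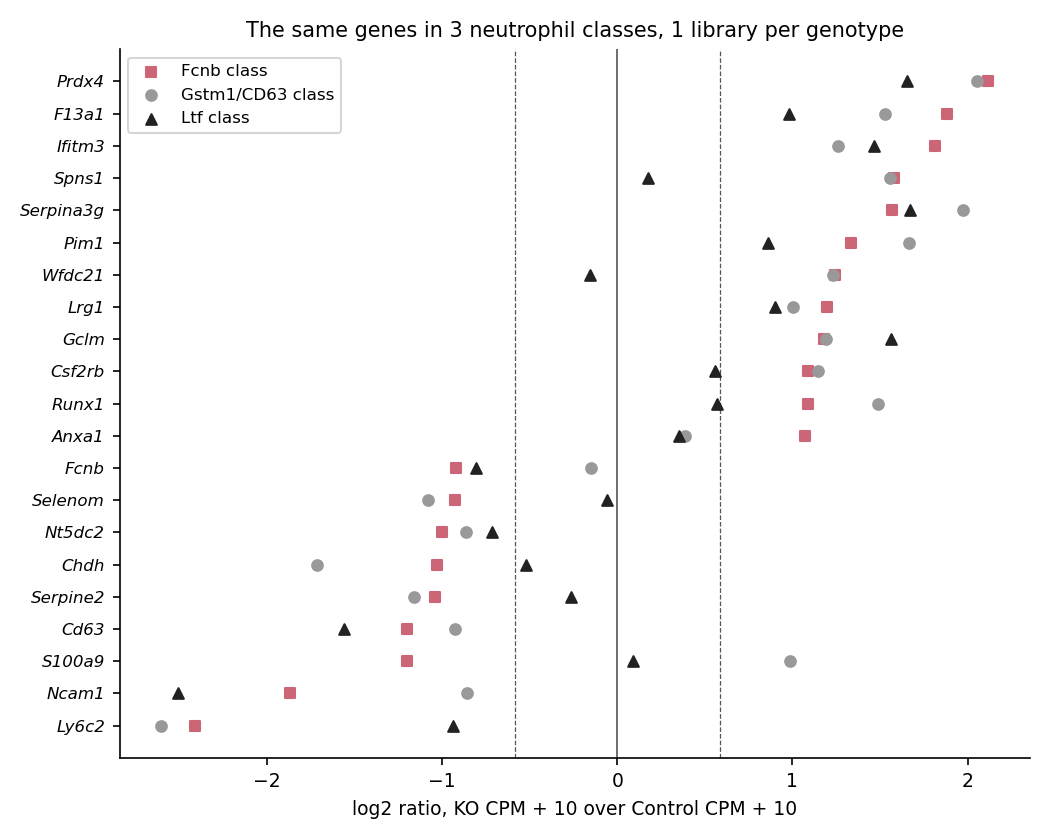
Log2 ratios of the KO-labelled library over Control for 21 genes in the Fcnb class (squares), the Gstm1/CD63 class (circles) and the Ltf class (triangles), 1 library per genotype. Most genes lie on the same side of 0 in the 3 classes; S100a9 lies on opposite sides in the Fcnb and Gstm1/CD63 classes, and Wfdc21 is near 0 in the Ltf class.

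Markers of other cell types had low sums in the class, apart from a list shared in part with granulocytes. The 10 markers of T, NK and innate lymphoid cells summed to 1108 and 961 CPM, nearly all of it from Nkg7 (1108 and 959.6 CPM), a granule protein gene that is also on the primary granule list, while Cd3e and Cd3g were at 0 in both libraries. The 10 macrophage markers summed to 44.0 CPM in Control and 55.9 CPM in KO-labelled cells, with Cd5l and Timd4 at 0 in both, although Vcam1 belongs to that list. The 12 monocyte progenitor markers summed to 263 and 326 CPM, and their defining factor Irf8 had 15 and 35 UMIs. Of the 3 measured ones 2 were higher (F13a1 and Ms4a6c), beside 1.07% over all measured genes. The 12 megakaryocyte markers summed to 167 and 260 CPM and the 14 erythroid markers to 127 and 75.3 CPM. Of the 10 stromal and endothelial markers 7 and 5 were at 0. The part of these cells in the results above was not tested.

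Promoter sequences were read for the genes with the largest differences, since Runx1 and C/EBP factors bind known motifs. A window of 250 bases before to 50 bases after the start site was searched on both strands for the RUNX motif TGTGGT and the C/EBP motif TTGCNNAA. Over all 32851 promoters of the RefSeq table (GRCm38.p6) 16.8% held the RUNX motif and 10.8% the C/EBP motif. Those shares are per promoter. In the counts below a gene holds a motif if any of its promoters does, so the measures are not alike. Of the 12 genes with the highest ratios 9 had a promoter in the table, of which 3 held the RUNX motif (Runx1, Serpina3g and Spns1) and 0 the C/EBP motif. Of the 12 with the lowest ratios 10 had one, of which 2 held the RUNX motif (Ly6c2 and S100a9) and 4 the C/EBP motif (Fcnb, Ngp, Retnlg and S100a9). Of these, Ngp, Retnlg and S100a9 were lower only with the cells rich in S100a8 and S100a9. Without those cells their log2 ratios were 0.22, 0.33 and 0.97. Of the 8 genes highest against Gstm1/CD63, 6 had one and S100a9 alone held either motif. Without the same cells S100a9 no longer passed 2-fold against Gstm1/CD63. A match is a description of letters and not evidence of binding.

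The upstream bases of 5 of these genes are shown 5′ to 3′ along each gene's strand, ending at the base before the start site, with motif letters in capitals. Fcnb, the naming gene, holds 2 C/EBP matches and S100a9 a match of each motif. Ly6c2, Serpina3g and Spns1 show the RUNX match beside the largest lower and 2 of the largest higher ratios. Positions are those of the printed bases on GRCm38.p6, and for Ly6c2 the table holds 2 start sites, of which 1 is shown.
Fcnb, chr2:28084879-28085128, minus strand: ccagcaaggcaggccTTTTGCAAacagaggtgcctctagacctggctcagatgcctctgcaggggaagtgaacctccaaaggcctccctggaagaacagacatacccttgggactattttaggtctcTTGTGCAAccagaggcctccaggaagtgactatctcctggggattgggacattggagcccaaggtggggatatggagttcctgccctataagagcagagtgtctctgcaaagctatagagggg
S100a9, chr3:90695722-90695971, minus strand: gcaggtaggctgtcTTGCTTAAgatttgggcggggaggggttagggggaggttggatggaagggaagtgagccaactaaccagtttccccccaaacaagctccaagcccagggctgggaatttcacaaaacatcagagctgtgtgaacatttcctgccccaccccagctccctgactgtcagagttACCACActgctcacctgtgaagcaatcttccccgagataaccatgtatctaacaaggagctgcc
Ly6c2, chr15:75111972-75112221, minus strand: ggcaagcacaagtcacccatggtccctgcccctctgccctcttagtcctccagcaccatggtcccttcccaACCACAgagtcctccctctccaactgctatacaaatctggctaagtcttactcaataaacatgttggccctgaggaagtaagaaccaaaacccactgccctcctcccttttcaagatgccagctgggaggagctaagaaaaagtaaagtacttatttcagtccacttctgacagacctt
Serpina3g, chr12:104235897-104236146, plus strand: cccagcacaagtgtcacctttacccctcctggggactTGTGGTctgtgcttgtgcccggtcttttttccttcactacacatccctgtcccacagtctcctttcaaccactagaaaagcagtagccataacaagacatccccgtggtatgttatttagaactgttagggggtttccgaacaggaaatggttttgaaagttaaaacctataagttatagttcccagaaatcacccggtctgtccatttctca
Spns1, chr7:126377935-126378184, minus strand: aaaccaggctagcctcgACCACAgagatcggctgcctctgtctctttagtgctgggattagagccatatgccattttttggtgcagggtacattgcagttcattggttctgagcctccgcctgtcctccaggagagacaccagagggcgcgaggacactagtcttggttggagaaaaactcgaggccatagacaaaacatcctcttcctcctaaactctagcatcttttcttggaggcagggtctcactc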

How the data were processed

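Gene expression was measured per cell with 10x Genomics 3′ version 3 libraries, 1 for Control and 1 labelled Runx1 KO. The submitters' processing notes name Cell Ranger and mm10, with no version or setting. The deposited matrix holds UMI counts for 31053 genes in 14795 cells, without normalization, and every cell's sum equalled the total count in the authors' annotation. No cell had fewer than 1000 detected genes. The authors' annotation also gave the fraction of mitochondrial UMIs, the library and 1 of 18 classes per cell; no label or header records how classes were assigned. The library named Dana_WT was taken as Control and Dana_KO as Runx1 KO.

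UMIs of the class were summed per library and divided by the class total to give CPM; log2 ratios used a pseudocount of 10 CPM. A gene was measured at 30 CPM or more in the higher sum and 50 UMIs over both, and was counted past 1.5-fold between libraries or past 2-fold in both libraries between classes. With 1 library per group no test was made. Ratio intervals are exact Poisson and share intervals exact Clopper-Pearson, both 95% and for counting error only. Shares of cells set beside the Car1 class, and the S phase and G2/M counts, were taken after thinning to 8000 UMIs per cell. All other numbers of cells with a UMI of a gene are unthinned and were not matched for depth. No doublets were called. The counting steps were tested on simulated data. TMM factors came from edgeR 4.0.16 and median-of-ratios factors from DESeq2 1.42.0, in R 4.3.3; all else was computed in Python 3.11.15.

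Named genes were the 12 highest and 12 lowest log2 ratios between libraries, the 10 highest against all other cells, the 8 highest and lowest against the neighbouring classes, the 4 class markers, Runx1, up to 4 measured members of each list with the largest absolute log2 ratio, and defining markers of other cell types; predicted, clone-named, sex-linked and mitochondrially encoded genes were left out. Other genes in the text, such as Prg3, Irf8, Tlr4, Cd14, Il1b, Il6, Tnf, Cebpa, Gfi1, Spi1 and Ms4a6c, were chosen after their values were seen. The class, its members and the gene lists were chosen with earlier results of these data known. The alternatives of leaving out S100-rich cells, each gene's highest cell or cells under 5000 UMIs, and the limit of 30 list UMIs, were added after seeing the data. Coordinates are GRCm38.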

Additional observations from a re-analysis of the deposited data

Results flagged for a closer look

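Among genes named by the rule and measured in both classes, 4 were at least 1.5-fold apart between libraries in the Fcnb class and at least 1.5-fold apart the opposite way in a neighbouring class. The difference between classes was not tested, each class has 1 library per genotype, and all classes share those libraries. Car1 had a log2 ratio of the KO-labelled library over Control of -1.84 in the Fcnb class, where a single cell held 98 of 182 Control UMIs, and 0.60 in the Ltf class, where Control had 16 UMIs. It was -1.27 in Gstm1/CD63 and -2.91 in the Car1 class. Cybb, the NADPH oxidase subunit, had 0.76 and -0.73 in the same classes. Retnlg had -1.77 in the Fcnb class, where 155 of 157 Control UMIs lay in a single cell, and 1.59 in the Ltf class. S100a9 had -1.20 in the Fcnb class and 0.98 in Gstm1/CD63, beside 1.65 in the Car1 class that should lack it, and 0.97 in the Fcnb class without the cells rich in S100a8 and S100a9.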

How the results depend on the processing

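No paired analysis was possible because each genotype has 1 library and the labels give no replicate numbers. Between libraries the 42 higher genes became 27 at a pseudocount of 30 CPM, 78 with no minimum beyond 1 UMI and 16 at a minimum of 100 CPM. The 36 lower genes became 19, 76 and 16 under those settings and 91 in the highest tercile of the stage index, which held 37 Control cells. Without S100-rich cells 45 were higher and 32 lower, of which 42 and 30 were among the genes above. Against Gstm1/CD63 the 8 higher genes became 3 at 100 CPM, and the 7 lower genes 2 at 100 CPM and 11 at a pseudocount of 1. Against the Ltf class the 908 higher genes became 480 (TMM), 452 (median-of-ratios) and 493 (100 CPM), and the 363 lower genes 551 (median-of-ratios) and 187 (100 CPM). The share ratio became 1.93 without the Pf4 class. Shares of cells with the S phase list became 25.1% in Control at 30 UMIs, and 100%, 98.0% and 20.8% in the KO-labelled library at 2, 5 and 30 UMIs. Those of the G2/M list became 21.6% in Control at 30 UMIs, and 97.7% and 22.8% in the KO-labelled library at 5 and 30 UMIs. Log2 ratios that changed sign were Camp (0.067 with the mean of each cell's CPM, 0.57 without S100-rich cells), Ngp (0.22 without them), Prg2 (-0.36 and -1.55 in the lowest and middle tercile), Retnlg (0.40 and 0.32 in those terciles, 0.33 without S100-rich cells, 0.29 without the highest cell) and S100a9 (0.32 and 0.065 in those terciles, 0.97 without S100-rich cells). The erythroid marker list's median became 0.057 without each gene's highest cell. Apart from the cells removed, the cause of these changes was not tested. Of 38 named genes past 1.5-fold, 33 remained past it in the same direction without S100-rich cells and 36 without the highest cell. At a pseudocount of 30 CPM 30 remained, and Cd24a, Cybb, Fabp5, Fcnb, Lbp, Ldhb, Mgl2 and Ncf1 did not. In the lowest, middle and highest tercile of the stage index 28, 30 and 32 of 35 remained. Leaving out cells over 2 times the median UMIs removed no cell of the class.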
